A study of Mus musculus with 54 samples.

Results

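The major histocompatibility complex (MHC) class II genes examined here were H2-Aa, H2-Ab1, H2-Eb1, Cd74, Ciita, H2-DMa and H2-DMb1, 7 of the 55536 genes listed in each of the RNA count tables, found by symbol together with the chromatin peaks at their loci. Microglia, the resident macrophages of the brain, were sorted as live cells high in CD11b, intermediate in CD45 and negative for Ly6c, and were profiled by RNA-seq in 24 mice, 3 per group. In the tolerance model, male wild-type C57BL/6J mice, 7 to 9 weeks old at arrival, received 2 intraperitoneal injections 4 weeks apart. Each injection was PBS (P) or the bacterial endotoxin lipopolysaccharide (LPS, L) at 1 mg/kg, which gave the groups PP, LP, PL and LL. In the priming model, mice of mixed FVB/C57BL/6J background and 11 to 12 weeks of age received 1 injection of PBS or of LPS at 1 mg/kg. The mutants (KO-PBS, KO-LPS) were Ercc1 delta/ko, which carry the alleles in every tissue and have deficient DNA repair and accelerated aging, and the controls (WT-PBS, WT-LPS) were littermates that were Ercc1 wt/delta, wt/ko or wt/wt, so controls could carry 1 mutant allele. Mice of this background can carry FVB alleles at the H2 locus, and their reads were aligned to the C57BL/6 build, the part of which in the values was not tested. All mice were killed 3 h after the last injection. ATAC-seq peaks, which mark open chromatin, were called for each of the 8 groups in 1 sample pooled from 2 mice, and ChIP-seq peaks of histone marks in 1 sample pooled from 5 mice, so the peaks have no replicate error.

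MHC class II molecules are pairs of an alpha and a beta chain that carry peptides of engulfed proteins to the cell surface for CD4+ T cells. Newly made pairs are held by the invariant chain, encoded by Cd74, until the chain is digested in endosomes and H2-DM, a dimer of H2-DMa and H2-DMb1, exchanges its last fragment for a peptide. The coactivator Ciita switches these genes on from the X and Y boxes of their promoters, where RFX, CREB and NF-Y factors bind. In healthy brain, class II is carried mostly by macrophages of the borders and by dendritic cells, and microglia acquire it in inflammation, injury and aging.

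Library totals ran from 4530395 to 15307836 expected counts in the tolerance model and from 18243891 to 34659337 in the priming model. Counts were rounded, scaled by the TMM method and are given as CPM, that is, scaled to a common library total. Levels of different genes were compared only as RPKM, which also divides by gene length. Ercc1 itself, the targeted gene, stood at 9.58, 11 and 8.79 CPM in WT-PBS and at 6.36, 5.14 and 8.18 in KO-PBS, and at 9.82, 7.93 and 8.7 in WT-LPS and 4.67, 5.11 and 6.82 in KO-LPS, with no overlap between genotypes in either treatment. The summed level of 8 microglial markers was 21700 to 43300 CPM in the tolerance model and 24600 to 56200 in the priming model, where WT-PBS library 3 stood lowest of its group at 27800 against 51700 and 56200. Neutrophil markers summed to 165 and 256 CPM in PL libraries 2 and 3 and to 0.971 in PL library 1. They summed to 0, 2.82 and 44.8 CPM in PP libraries 1, 2 and 3, 4.81 to 17.9 in LP and 0.487 to 5.42 in LL. Monocyte markers summed to 55.3 to 94.8 CPM in PL against 22.1 to 45.8 in the other tolerance groups. B cell markers summed to at most 35.4 CPM and were nearly all Cd79b.

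Promoters from RefSeq (build GRCm38.p6, 250 bases before to 50 after a start) are printed for H2-Eb1, H2-DMb1 and H2-Aa because X and Y boxes, the sites of Ciita-dependent control, are the feature that class II genes are known to share. An X box core was searched as GNNACNNAT and a Y box as ATTGG, on both strands, and an X-Y pair as the Y box 10 to 35 bases beyond the X core on the same strand. The first 2 sequences have such a pair in capitals, and the last, of H2-Aa, has a Y box alone in capitals and no match to this X core.
H2-Eb1, chr17:34305617-34305916, plus strand: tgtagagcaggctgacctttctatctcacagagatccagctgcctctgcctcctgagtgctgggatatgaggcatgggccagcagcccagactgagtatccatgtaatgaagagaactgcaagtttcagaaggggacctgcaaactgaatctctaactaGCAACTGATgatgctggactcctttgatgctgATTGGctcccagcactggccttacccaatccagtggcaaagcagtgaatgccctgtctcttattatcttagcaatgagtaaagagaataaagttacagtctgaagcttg
H2-DMb1, chr17:34152941-34153240, plus strand: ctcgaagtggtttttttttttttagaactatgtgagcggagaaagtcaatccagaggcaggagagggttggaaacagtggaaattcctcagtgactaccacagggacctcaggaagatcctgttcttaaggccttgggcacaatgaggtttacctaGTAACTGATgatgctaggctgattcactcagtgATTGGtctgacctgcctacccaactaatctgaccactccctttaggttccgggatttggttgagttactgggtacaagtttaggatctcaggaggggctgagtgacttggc
H2-Aa, chr17:34287774-34288073, minus strand: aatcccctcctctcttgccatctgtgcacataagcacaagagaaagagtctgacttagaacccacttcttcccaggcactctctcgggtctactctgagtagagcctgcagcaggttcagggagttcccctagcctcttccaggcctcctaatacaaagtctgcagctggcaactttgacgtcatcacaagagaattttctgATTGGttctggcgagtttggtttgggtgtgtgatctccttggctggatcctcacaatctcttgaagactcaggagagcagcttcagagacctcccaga
The X core began 91 bases before the start in H2-Eb1 and 94 bases before it in H2-DMb1, and the boxes were separated by 23 and 24 bases. In both, the letters gatgct followed the X core directly. An X-Y pair was present in 222 of 32851 RefSeq promoters of this length (0.676%), an X core in 25.3% and a Y box in 37.4%. Of the 5 entries for 4 of the genes, 2 held the pair, and neither of the entries for H2-DMa did. The H2-DMa entries began at chr17:34122582 and chr17:34125268. Another region of this gene, chr17:34135156-34136088, was open in all 8 groups and was not searched for the pair. Neither an E box (CACGTG), nor TTCNNNGAA, the letters of the interferon-gamma activated site, nor GAAANNGAA, an interferon-stimulated element, was found in any of the 5, against 7.15%, 8.3% and 8.56% of all promoters. A match is only a run of letters, and promoters of H2-Ab1, Cd74 and Ciita were not used here.

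The genes of PP microglia fell into an abundant pair, a middle group and a rare regulator. In PP microglia, H2-DMb1 and H2-DMa had the highest mean RPKM, 52.2 ± 8.83 and 44.2 ± 8.53 (SD, n = 3), and did not differ beyond their spread. Cd74 followed at 18.5 ± 4.15 RPKM. The chains were lower, with H2-Ab1 at 4.46 ± 0.958, H2-Eb1 at 3.40 ± 1.51 and H2-Aa at 1.68 ± 0.891 RPKM, and the spreads of neighbouring chains in this order overlapped. Ciita stood last at 0.0629 ± 0.0323 RPKM. These are bulk libraries, in which fewer cells of a type and less RNA per cell cannot be told apart. In WT-PBS microglia of the priming model H2-DMb1 came first at 35.1 ± 11.8 RPKM, with Cd74 at 21.2 ± 4.53 and H2-DMa at 20.0 ± 3.71. H2-Ab1 stood at 4.06 ± 0.552, H2-Aa at 1.05 ± 0.722 and H2-Eb1 at 0.582 ± 0.442 RPKM. In KO-LPS microglia of that model Cd74 came first at 359 ± 76.4 RPKM. H2-DMb1 at 40.1 ± 9.11, H2-DMa at 33.8 ± 8.14 and H2-Ab1 at 32.2 ± 6.86 followed, with overlapping spreads among these 3. H2-Aa at 15.6 ± 4.37, H2-Eb1 at 10.9 ± 2.86 and Ciita at 0.128 ± 0.0828 RPKM completed that order. Levels of the models were not set against each other, since strain, read length and sequencer differed.

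**Figure D1:**
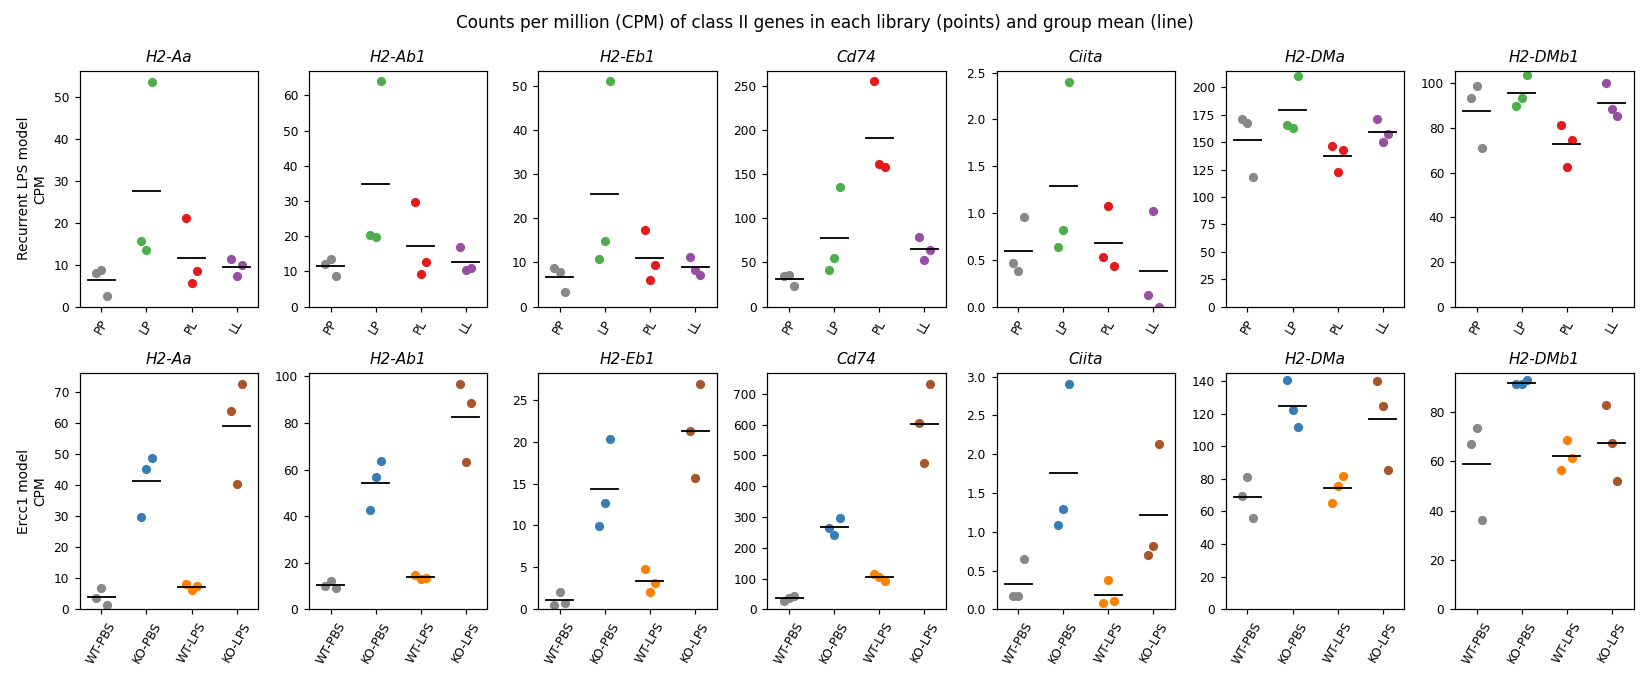
Level of each class II gene in CPM (vertical axis, linear, from 0) in each library (points, 3 per group) of the tolerance model (upper row) and the priming model (lower row), with the group mean as a line. Cd74 reached 158 to 255 CPM in PL and 474 to 731 in KO-LPS, H2-Aa, H2-Ab1 and H2-Eb1 stood highest of the tolerance model in LP library 3, and the H2-DM genes moved least.

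Cd74 rose with LPS in 3 of the 4 comparisons of LPS with PBS as the last injection, and the chains and Cd74 were higher in Ercc1 mutants with and without LPS. A member passed at an adjusted p under 0.05 in edgeR's quasi-likelihood test with Benjamini-Hochberg adjustment over all genes tested. There were 16096 tested genes in the tolerance model, among them 6 of the 7 members, and 17460 in the priming model, among them all 7. After the first LPS challenge (PL versus PP) 1 of 6 members was higher and 0 lower, against 26% and 26.6% of all genes. Weeks after LPS (LP versus PP) 0 were higher and 0 lower by edgeR, against 0% and 0% of all genes, and at an unadjusted p under 0.05 the count was 4 members higher and 607 higher and 210 lower of all genes. DESeq2 also called 0 members there, and 2 genes higher and 1 lower in all. At the second challenge (LL versus LP) 0 members were higher and 1 lower, against 15.4% and 15.9% of all genes. After repeated compared with single challenge (LL versus PL) 0 were higher and 1 lower, against 3.62% and 4.73%. The interaction, the second response minus the first, was higher in 0 and lower in 1 of the 6, against 0.335% and 1.46% of all genes.

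The genotype gave larger counts. Without LPS (KO-PBS versus WT-PBS) 5 of 7 members were higher and 0 lower, against 8.19% and 3.37% of all genes, with a median log2 fold change of 2.38 over the members and -0.02 over all genes. After LPS (KO-LPS versus WT-LPS) 6 of 7 were higher and 0 lower, against 13.4% and 13.6%, with medians of 2.58 and -0.04. LPS in controls (WT-LPS versus WT-PBS) raised 2 members and lowered 0, against 10.7% and 9.15% of all genes. LPS in mutants (KO-LPS versus KO-PBS) raised 2 and lowered 0, against 17.7% and 19.3%. The interaction of genotype and LPS passed in 0 members higher and 0 lower by edgeR, against 1.55% and 3.08% of all genes, with 0 members also at an unadjusted p under 0.05 in edgeR and DESeq2 and 2 lower at that threshold in limma with surrogate variables. In the other directions with a count of 0, edgeR and DESeq2 also gave 0 members at an unadjusted p under 0.05, except LL versus PL, where 1 member, H2-DMb1, was higher. The genotype comparison without LPS called 1430 genes higher and 588 lower in all, and 1339 and 819 with RLE scaling. Several of these comparisons share their control libraries, so their counts are not independent of each other.

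**Figure D2:**
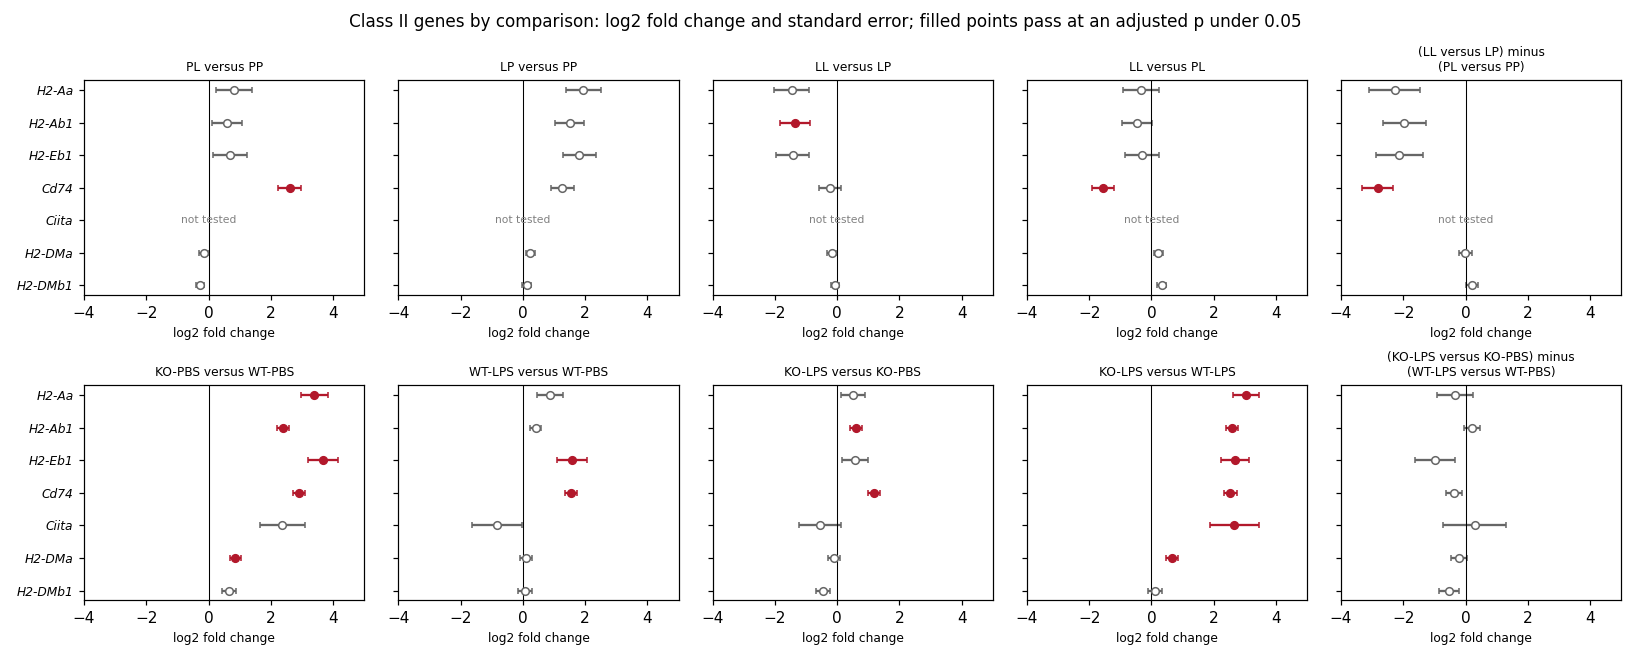
Log2 fold change (horizontal axis) and standard error (bars) of each class II gene from edgeR in the 10 comparisons, with filled points for an adjusted p under 0.05. Cd74 is filled in 7 panels, H2-Aa, H2-Ab1 and H2-Eb1 are filled above 0 in both genotype panels, and Ciita was not tested in the tolerance model.

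H2-Aa (ENSMUSG00000036594, GRCm38 chr17:34282744-34287823, minus strand) encodes the alpha chain of the I-A molecule. It stood at 7.96, 8.65 and 2.48 CPM in PP and at 21.01, 5.53 and 8.45 in PL, so PL library 1 was above all PP libraries and the others lay among them. LP libraries held 15.7, 13.5 and 53.6 CPM, all above PP, and LL libraries 11.3, 7.33 and 9.94, all below LP. LP library 3 alone was more than the other LP libraries together. The log2 fold change was 0.82 (SE 0.57, edgeR adjusted p = 0.245) for PL versus PP and 1.94 (SE 0.56, unadjusted p = 0.004, adjusted p = 0.792) for LP versus PP. It was -1.46 (SE 0.57, edgeR adjusted p = 0.0645) for LL versus LP. Without LP library 3 the LP versus PP value was 1.08 (edgeR adjusted p = 0.601) and the LL versus LP value -0.60 (adjusted p = 0.363). Without LP library 2 the latter passed, with an edgeR adjusted p of 0.031.

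H2-Ab1 (ENSMUSG00000073421, chr17:34257689-34269419, plus strand), the beta chain of I-A, repeated this order. PP libraries held 12.0, 13.6 and 8.76 CPM, LP 20.2, 19.7 and 64.2, PL 29.8, 9.31 and 12.7, and LL 16.9, 10.3 and 11.1. All LP libraries were above all PP and all LL libraries, and PL and PP overlapped. It fell in LL versus LP by 1.37 on the log2 scale (SE 0.48, edgeR adjusted p = 0.0436), 2.58-fold. Its LP versus PP value was 1.51 (SE 0.47, unadjusted p = 0.00646, edgeR adjusted p = 0.843). The call in LL versus LP was lost without LP library 3, at -0.62 (edgeR adjusted p = 0.243), and without LL library 1, 2 or 3 (adjusted p = 0.0695, 0.132 and 0.119), and in DESeq2 (adjusted p = 0.0532).

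H2-Eb1 (ENSMUSG00000060586, chr17:34305867-34316674, plus strand) encodes the beta chain of I-E, whose alpha chain gene H2-Ea is not functional in C57BL/6. It stood at 8.65, 7.95 and 3.24 CPM in PP, 10.8, 14.9 and 51.0 in LP, 17.4, 6.07 and 9.45 in PL and 11.2, 8.21 and 7.23 in LL. LP library 3 again stood far above the rest, and LL library 1 was above LP library 1. The log2 fold change was 1.81 for LP versus PP (SE 0.53, unadjusted p = 0.00403, edgeR adjusted p = 0.792) and -1.43 for LL versus LP (SE 0.53, adjusted p = 0.0541). Without LP library 3 these were 0.91 (edgeR adjusted p = 0.59) and -0.53 (adjusted p = 0.333), and without LP library 1 or 2 the latter comparison passed, with adjusted p of 0.0211 and 0.0362. With no filter on low counts, H2-Aa, H2-Ab1, H2-Eb1 and Cd74 all passed in LP versus PP, with edgeR adjusted p of 0.0107 to 0.0242, and they also passed in limma with surrogate variables, at 0.00294 to 0.0237.

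LP library 3 also stood apart in markers of border-associated macrophages, brain-lining cells that carry class II at rest. Leaving out Stab1, which made up nearly all of the list and is also read in microglia, 7 such markers summed to 26.9, 21.4 and 57.2 CPM in LP and to 22.7 to 24.8 in PP. Mrc1, the mannose receptor, was at 21.3, 16.2 and 35.2 CPM in LP, and Cd163, a haemoglobin scavenger receptor, at 0.962, 0.94 and 4.2. These sums were 15.1 to 29.8 CPM in PL and 38.6 to 44 in LL, where H2-Aa stood at 7.33 to 11.3 CPM. With Stab1 the sums were 1400 to 1540 CPM in PP, 1240 to 1330 in LP, 1030 to 1560 in PL and 1370 to 1520 in LL. The part of these markers in the LP values was not tested.

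The chains were low in control littermates and clearly higher in Ercc1 mutants. H2-Aa stood at 3.63, 6.87 and 1.42 CPM in WT-PBS and at 29.85, 45.2 and 48.75 in KO-PBS, with no overlap. It was 10.5-fold higher (log2 fold change 3.39, SE 0.44, edgeR adjusted p = 0.000411). After LPS it stood at 8.02, 6.13 and 7.42 CPM in WT-LPS and at 64.1, 40.55 and 72.6 in KO-LPS, again apart, and 8.22-fold higher (3.04, SE 0.43, adjusted p = 0.000287). LPS itself gave log2 values of 0.87 in controls (SE 0.42, edgeR adjusted p = 0.176) and 0.52 in mutants (SE 0.39, adjusted p = 0.324), with overlapping libraries in both. The value in controls passed without WT-PBS library 2, with an edgeR adjusted p of 0.0182.

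H2-Ab1 had the most even replicates of the chains. WT-PBS libraries held 10.0, 12.0 and 9.22 CPM and KO-PBS libraries 42.5, 56.9 and 63.7, a log2 fold change of 2.38 (SE 0.19, edgeR adjusted p = 7.88e-06). WT-LPS libraries held 14.9, 13.2 and 13.3 CPM and KO-LPS libraries 96.85, 63.0 and 88.3, a log2 fold change of 2.58 (SE 0.19, adjusted p = 2.95e-06). All libraries of the genotypes were apart in both treatments. It was also higher after LPS in mutants by 0.61 on the log2 scale (SE 0.18, edgeR adjusted p = 0.019), although KO-LPS library 2 lay below KO-PBS library 3. That call was lost without KO-PBS library 1, KO-LPS library 1 or KO-LPS library 3 (edgeR adjusted p = 0.079, 0.0825 and 0.0576). In controls the LPS value was 0.41 (SE 0.19, edgeR adjusted p = 0.15), with all WT-LPS libraries above WT-PBS.

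H2-Eb1 had the largest fold change of the members between genotypes without LPS. It stood at 0.528, 2.11 and 0.751 CPM in WT-PBS and at 9.92, 12.7 and 20.4 in KO-PBS, apart and 12.8-fold higher (3.67, SE 0.49, edgeR adjusted p = 0.000513). WT-LPS libraries held 4.76, 2.04 and 3.17 CPM and KO-LPS libraries 21.3, 15.7 and 26.8, apart and 6.42-fold higher (2.68, SE 0.45, edgeR adjusted p = 0.000981). The gene also rose with LPS in controls, by 1.56 on the log2 scale (SE 0.48, edgeR adjusted p = 0.0387), with WT-LPS library 2 below WT-PBS library 2. This call was lost without WT-PBS library 1 or 3 (edgeR adjusted p = 0.116 and 0.0906) and without WT-LPS library 1 or 3 (adjusted p = 0.159 and 0.0802). In mutants the LPS value was 0.57 (SE 0.42, edgeR adjusted p = 0.309).

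Cd74 (ENSMUSG00000024610, GRCm38 chr18:60803848-60812652, plus strand), the invariant chain, rose at the first LPS challenge and did not pass at the second. PP libraries held 34.4, 35.8 and 23.1 CPM and PL libraries 255, 161 and 158, with no overlap. The rise was 6.07-fold (log2 fold change 2.60, SE 0.36, edgeR adjusted p = 3.84e-05). LP libraries held 41.7, 55.2 and 136 CPM and LL libraries 78.4, 52.5 and 64.1, so LL overlapped LP and lay below all PL libraries. LP versus PP gave 1.27 (SE 0.36, unadjusted p = 0.00327, edgeR adjusted p = 0.776), or 0.63 without LP library 3 (adjusted p = 0.468), with every LP library above every PP library. LL versus LP gave -0.23 (SE 0.35, edgeR adjusted p = 0.665), or 0.41 without LP library 3 (adjusted p = 0.229), so the sign of the second response rested on that library. LL was 2.94-fold lower than PL (-1.56, SE 0.35, edgeR adjusted p = 0.015), a call lost without LL library 2 (adjusted p = 0.105) or LL library 3 (adjusted p = 0.0516). The second response differed from the first by -2.83 on the log2 scale (SE 0.50, edgeR adjusted p = 0.00973), and by -2.19 without LP library 3 (adjusted p = 0.00434). The interactions of H2-Aa, H2-Ab1 and H2-Eb1 had the same sign, -2.28, -1.96 and -2.13, with edgeR adjusted p of 0.182, 0.169 and 0.186.

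In the priming model Cd74 rose with LPS in both genotypes and was higher in mutants in both treatments. WT-PBS libraries held 27.4, 37.0 and 42.4 CPM, WT-LPS 116, 104 and 91.15, KO-PBS 264, 241 and 295, and KO-LPS 604, 474 and 731. No groups overlapped, and each KO-PBS library was above each WT-LPS library. The LPS response was 2.91-fold in controls (1.54, SE 0.19, edgeR adjusted p = 0.000159) and 2.26-fold in mutants (1.18, SE 0.19, adjusted p = 0.000397). The genotypes differed 7.48-fold without LPS (2.90, SE 0.20, edgeR adjusted p = 1.99e-06) and 5.81-fold after it (2.54, SE 0.19, adjusted p = 3.48e-06). The interaction was -0.36 (SE 0.26, edgeR adjusted p = 0.471).

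The H2-DM genes moved little. H2-DMa (ENSMUSG00000037649, chr17:34119541-34139101, plus strand), the alpha subunit, stood at 171, 168 and 118 CPM in PP, 166, 163 and 211 in LP, 146, 122.5 and 143 in PL and 171, 150 and 157 in LL. H2-DMb1 (ENSMUSG00000079547, chr17:34153072-34160230, plus strand), a beta subunit, stood at 93.6, 98.8 and 70.9 CPM in PP, 90.0, 93.5 and 104 in LP, 81.5, 62.7 and 74.4 in PL and 100.1, 88.4 and 85.4 in LL. Neither passed in any comparison of the tolerance model, although all LL libraries of both genes lay above all PL libraries, by log2 values of 0.22 (edgeR adjusted p = 0.383) for H2-DMa and 0.33 (adjusted p = 0.154) for H2-DMb1. H2-DMb1 gave -0.27 (SE 0.13, edgeR adjusted p = 0.0992) in PL versus PP, and passed as lower without PP library 3, at -0.39 (adjusted p = 0.0165). H2-DMb1 has a close copy, H2-DMb2, and H2-DMa overlaps Brd2 on the other strand, so reads that fit both were not separable here. Whether the authors counted by strand is not given in the sources used here.

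In the priming model H2-DMa was higher in mutants, and edgeR called no genotype difference in H2-DMb1. H2-DMa stood at 69.3, 81.4 and 55.8 CPM in WT-PBS and at 140, 122 and 112 in KO-PBS, apart and 1.81-fold higher (0.86, SE 0.19, edgeR adjusted p = 0.0109). WT-LPS libraries held 65.0, 75.4 and 81.98 CPM and KO-LPS libraries 140, 125 and 85.3, apart and 1.57-fold higher (0.65, SE 0.19, edgeR adjusted p = 0.0213). Both calls were near the threshold. The first was lost without KO-PBS library 1 (edgeR adjusted p = 0.051), and the second without WT-LPS library 1 or 2 (adjusted p = 0.0809 and 0.0605) or KO-LPS library 1 or 2 (adjusted p = 0.0901 and 0.0651). H2-DMb1 stood at 67.1, 73.7 and 36.4 CPM in WT-PBS, with library 3 low, and at 91.3, 91.4 and 92.9 in KO-PBS, all above WT-PBS (0.64, SE 0.23, edgeR adjusted p = 0.0933). After LPS it stood at 56.7, 68.9 and 61.6 CPM in WT-LPS and 82.8, 67.5 and 52.2 in KO-LPS, which overlapped (0.11, SE 0.23, edgeR adjusted p = 0.764). All KO-LPS libraries of H2-DMb1 lay below all KO-PBS libraries, by -0.44 on the log2 scale (SE 0.23, edgeR adjusted p = 0.143). That fall passed in limma with and without surrogate variables (limma adjusted p = 0.0212 and 0.0258). It also passed in edgeR on the compared groups alone (adjusted p = 0.0495). With each library left out in turn, the H2-DMb1 value for KO-PBS versus WT-PBS ranged from 0.36 to 0.79 (edgeR adjusted p = 0.0584 to 0.2). Limma with surrogate variables called that genotype difference, at 0.64 (SE 0.16, adjusted p = 0.0305). WT-PBS library 3 was also the library with the low sum of microglial markers, and the part of that low sum in the H2-DMb1 value was not tested.

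Ciita (ENSMUSG00000022504, chr16:10480059-10528418, plus strand), the class II coactivator, was near the limit of detection. Expected counts were 4, 6.5 and 5 in PP, 4, 13 and 11.5 in LP, 6, 8 and 3 in PL and 1, 7 and 0 in LL, too few for the filter, and a difference was not detectable at this depth. With no filter, the LP versus PP value was 1.05 (SE 0.59, edgeR adjusted p = 0.811) and the PL versus PP value 0.32 (SE 0.64, adjusted p = 0.79). In the deeper priming model the counts were 5, 5 and 24 in WT-PBS, 35, 25 and 96 in KO-PBS, 2, 11 and 3 in WT-LPS and 22, 18 and 58 in KO-LPS. As CPM these were 0.176, 0.176 and 0.643 in WT-PBS against 1.09, 1.30 and 2.90 in KO-PBS, with no overlap. The log2 fold change was 2.37 (SE 0.73), with an edgeR adjusted p of 0.0553. It passed in DESeq2 (adjusted p = 0.0168), with no filter (edgeR adjusted p = 0.0415), with a filter at 1 CPM (0.0457) and without WT-PBS library 3, where the value was 3.27 (adjusted p = 0.0183). After LPS, KO-LPS at 0.703, 0.822 and 2.13 CPM was above WT-LPS at 0.0750, 0.374 and 0.109, a called difference of 2.66 (SE 0.78, edgeR adjusted p = 0.0235). That call was lost without WT-LPS library 1 or 3 (edgeR adjusted p = 0.0818 and 0.0882) or KO-LPS library 3 (adjusted p = 0.111). For LPS itself the log2 values of Ciita were -0.84 in controls (SE 0.80, edgeR adjusted p = 0.513) and -0.54 in mutants (SE 0.68, adjusted p = 0.567), and they went to 0.10 without WT-PBS library 3 and to 0.03 without KO-PBS library 3.

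Other genes of the class II route were followed in 5 lists. Of the other class II genes, 3 of 4 tested were higher in KO-PBS than in WT-PBS and 0 lower, against 8.19% and 3.37% of all genes. H2-DMb2 was higher by 0.95 on the log2 scale (edgeR adjusted p = 0.0361). H2-Oa and H2-Ob, whose products form the H2-DO inhibitor of H2-DM, were higher by 0.83 (adjusted p = 0.00374) and 0.79 (adjusted p = 0.00111). After LPS, 2 of 4 were higher in mutants, H2-Oa (0.91) and H2-Ob (0.54), against 13.4% of all genes. In the tolerance model H2-DMb2 fell at the first challenge by 0.49, 1 of 3, against 26.6% of all genes. H2-Ob fell in LL versus LP by 0.27, 1 of 3, against 15.9%. H2-DMb2 was higher in LL than in PL by 0.38, 1 of 3, against 3.62%. The calls in LL versus LP and in LL versus PL were lost in each of the 6 fits with 1 library left out.

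The enhanceosome factors are those that Ciita joins at the X and Y boxes. In KO-PBS versus WT-PBS 0 of 7 passed by edgeR or DESeq2, with 2 lower at an unadjusted p under 0.05 in edgeR and a median of -0.17 against -0.02 over all genes, where 8.19% of all genes were higher and 3.37% lower. In PL versus PP 3 of 7 rose and 2 fell, against 26% and 26.6% of all genes: the NF-Y subunits Nfyb (2.47) and Nfya (1.26) rose with Nfyc (0.33), while the RFX subunits Rfxap (-0.61) and Rfx5 (-0.48) fell. LL versus LP had 2 higher and 3 lower, against 15.4% and 15.9% of all genes. Nfyb (1.94) and Nfya (1.09) were higher, and Rfx5 (-0.70), Creb1 (-0.57) and Rfxap (-0.55) lower. Nfyb and Nfya rose and Rfxap fell with LPS in both genotypes of the priming model. Nfyb was at 1.76 in controls and 2.20 in mutants, and Rfxap at -0.79 in mutants, where Creb1 rose too (0.97). Thus 2 rose and 1 fell in controls, against 10.7% and 9.15% of all genes. In mutants 3 rose and 1 fell, against 17.7% and 19.3%. After LPS, 2 of 7 were higher in mutants, Creb1 (1.04) and Rfx5 (0.82), against 13.4% of all genes. The Creb1 response also differed between genotypes, by 1.21 (edgeR adjusted p = 0.00923).

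Interferon-gamma signalling, through the kinases Jak1 and Jak2 to Irf1, is the best known inducer of Ciita. Without LPS, 2 of 8 genes of this route were higher in mutants and 2 lower, against 8.19% and 3.37% of all genes. The higher ones included Irf1 (0.82, edgeR adjusted p = 0.00327). The lower ones were Usf1 (-0.52), an E box factor, and the receptor chain Ifngr1 (-0.51). In PL versus PP 6 of 8 rose and 1 fell, against 26% and 26.6% of all genes. Irf1 (2.22), the inhibitor Socs1 (1.67) and Jak1 (1.45) led the rise, and Usf1 fell (-1.21). LL versus LP raised 3, Jak1 (1.15), Irf1 (0.94) and Socs1 (0.92), and lowered 1, Usf1 (-0.97), against 15.4% and 15.9% of all genes. Irf1 had a smaller second response by -1.28 (edgeR adjusted p = 0.0046). LL versus PL had 4 lower, among them Irf1 (-1.27) and Socs1 (-0.92), against 4.73% of all genes. In WT-LPS versus WT-PBS 4 rose and 1 fell, against 10.7% and 9.15% of all genes, with Irf1 at 2.35 and Usf1 at -1.08. In the 6 fits with 1 library left out, 2 to 3 rose. In KO-LPS versus KO-PBS 6 rose and 1 fell, against 17.7% and 19.3%, with Socs1 at 2.27 and Jak2 at 1.60. In KO-LPS versus WT-LPS 5 were higher and 1 lower, against 13.4% and 13.6%. Socs1 (1.34) and Jak2 (1.23) were among the higher, and Usf1 was lower (-0.70).

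Enzymes of antigen processing rose with the genotype as well. In KO-PBS versus WT-PBS 4 of 6 were higher and 0 lower, against 8.19% and 3.37% of all genes. These were Ifi30, a lysosomal thiol reductase (1.09, edgeR adjusted p = 1.87e-05), and the cathepsins Ctsb (0.82), Ctsl (0.75) and Ctss (0.54), of which Ctss trims the invariant chain. The same 4 were higher in KO-LPS versus WT-LPS, by 1.67, 1.19, 1.09 and 0.77, against 13.4% of all genes. Ifi30 rose in all 4 comparisons of LPS with PBS as the last injection, by 1.72 in PL versus PP, 1.05 in LL versus LP, 0.53 in controls and 1.12 in mutants. The last list held the costimulatory genes Cd80, Cd86, Cd40 and Cd83, whose products T cells read beside class II or which prolong its stay at the surface, and March1, a ligase that removes class II from the surface. In KO-PBS versus WT-PBS 0 of 5 were higher by edgeR and by DESeq2, with 1 at an unadjusted p under 0.05 in edgeR. March1 was lower (-0.58, edgeR adjusted p = 0.0482). Of all genes 8.19% were higher and 3.37% lower by edgeR. With LPS, 4 of 5 rose in PL versus PP, with Cd40 at 6.52 and Cd83 at 3.76, against 26% of all genes. In LL versus LP 4 of 5 rose, with Cd83 at 2.03 and Cd40 at 1.80, against 15.4%, and the other gene was lower at an unadjusted p under 0.05. In controls 3 of 5 rose and in mutants 5 of 5, against 10.7% and 17.7%. March1 was among them each time, by 0.43, 0.80, 0.59 and 0.82. The interaction in the tolerance model was lower for Cd40 (-4.73, edgeR adjusted p = 0.00197) and Cd83 (-1.72, adjusted p = 0.00356), beside that of Cd74. In KO-LPS versus WT-LPS 4 of 5 were higher, against 13.4% of all genes, Cd40 by 3.73, Cd83 by 1.67, Cd80 by 1.66 and Cd86 by 0.70.

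Genes with a pattern like that of H2-Aa were sought by the root mean square difference of log2 CPM group means over the 8 groups, centred within each model, among 10073 genes with a mean of at least 5 CPM in both models. Members came first, H2-Eb1 at 0.16 and H2-Ab1 at 0.381 on the log2 scale, while Cd74 stood at 0.726, H2-DMa at 1.04 and H2-DMb1 at 1.18. The nearest other genes were the intermediate filament gene Vim (0.503), the integrin Itgax, which encodes CD11c (0.505), the lysozyme gene Lyz2 (0.509), Samd9l (0.54), an interferon-stimulated gene, and the formin Inf2 (0.541). Itgax group means around the model mean were -1.96 in WT-PBS, 1.68 in KO-PBS, -1.77 in WT-LPS and 2.04 in KO-LPS on the log2 scale, against -2.19, 1.39, -1.10 and 1.90 for H2-Aa. In LP, Itgax stood at 0.14 and H2-Aa at 1.09, the group in which they differed most.

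Markers of other cells that carry class II were read beside the genotype values. Without Stab1, the border-associated macrophage markers summed to 9.47, 15.8 and 8.04 CPM in WT-PBS, 28.9, 34.6 and 19.5 in KO-PBS, 24.8, 20.2 and 21 in WT-LPS and 52.2, 65.9 and 57.5 in KO-LPS. With Stab1 the sums were 847 to 1130 CPM in WT-PBS, 522 to 728 in KO-PBS, 1020 to 1140 in WT-LPS and 446 to 475 in KO-LPS. Of the 8 markers, 2 were higher in KO-PBS than in WT-PBS, Mrc1 (1.61) and Ms4a7 (3.01), and 1, Stab1, was lower (-0.67). Of all genes 8.19% were higher and 3.37% lower. In KO-LPS versus WT-LPS 2 of the 8 were higher and 1 lower, against 13.4% and 13.6% of all genes. Cd163, also on the list, was at 1.23, 0.775 and 0.724 CPM in WT-PBS and 0.749, 0.778 and 0.634 in KO-PBS. Pf4 was at 0 in all WT-PBS libraries and at 0.749, 0 and 0.362 CPM in KO-PBS. WT-LPS libraries had marker sums within the range of KO-PBS and H2-Aa levels of 6.13 to 8.02 CPM, against 29.85 to 48.75 in KO-PBS. Dendritic cell markers summed to 15.7 to 20 CPM in WT-PBS and 16.5 to 18.4 in KO-PBS, with Flt3 at 0.208 to 0.695 CPM in KO-PBS, and to 62.2 to 144 in KO-LPS, mostly Zbtb46 and Ccr7. Monocyte markers, mostly Ccr2, summed to 5.28 to 28.4 CPM in WT-PBS, 19.6 to 24.2 in KO-PBS, 24.5 to 27.5 in WT-LPS and 29.4 to 37.9 in KO-LPS. Of the 3 tested, 1 was higher in KO-PBS, against 8.19% of all genes. This was Plac8, at 0.0352, 0.352 and 0.349 CPM in WT-PBS and 3.34, 2.13 and 2.9 in KO-PBS (3.46, edgeR adjusted p = 0.00105). After LPS 2 of the 3 were higher in mutants, Plac8 (3.68) and Vcan (1.81), against 13.4% of all genes. Ly6c2 and Chil3, also on the list, were at or below 0.0936 CPM in WT-PBS and KO-PBS, and in KO-LPS reached 0.44 and 2.75. Neutrophil markers summed to at most 0.619 CPM in this model except in KO-LPS library 3, at 26.1. T and NK cell markers summed to at most 5.18 CPM in any library. The 1 tested in this model was higher in KO-PBS than in WT-PBS (2.09) and in KO-LPS than in WT-LPS (4.01). Klrb1c of this list stood at 0.141, 0.141 and 0.456 CPM in WT-PBS and 0.905, 1.45 and 0.966 in KO-PBS. After LPS it stood at 0.375, 0.238 and 0.218 CPM in WT-LPS and 4.54, 4.16 and 4.84 in KO-LPS. The sort gate took cells of intermediate CD45 without Ly6c. The part of the macrophage, dendritic cell, monocyte, neutrophil and T and NK cell markers in the class II values was not tested.

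**Figure D3:**
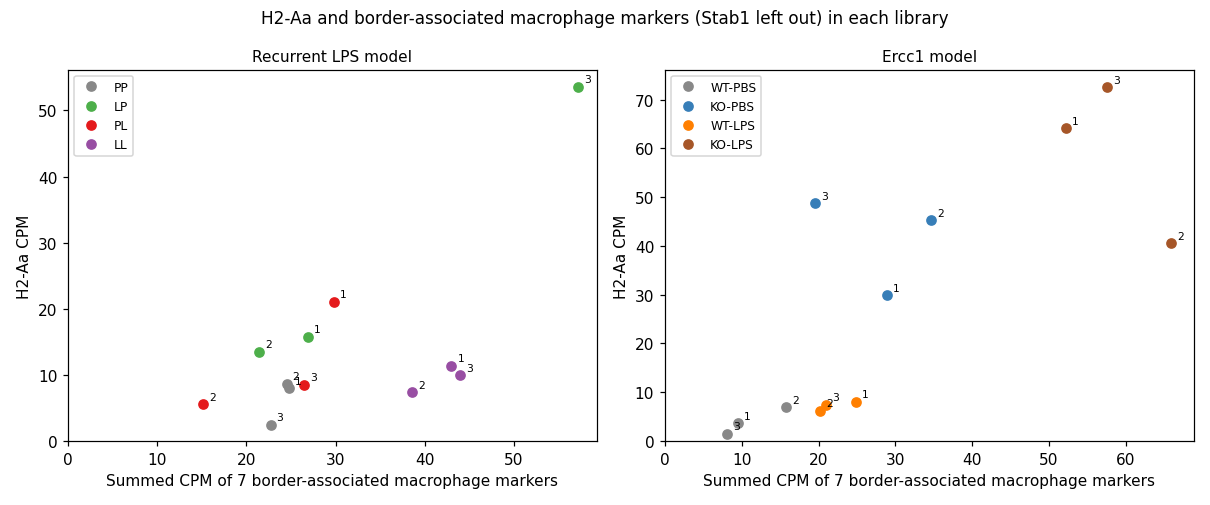
H2-Aa in CPM (vertical axis) against the summed level of 7 border-associated macrophage markers without Stab1 (horizontal axis, CPM) in each library, numbered by replicate, of the tolerance model (left) and the priming model (right). LP library 3 stands apart at 57.2 and 53.6 CPM, LL libraries have marker sums of 38.6 to 44 CPM with H2-Aa at 7.33 to 11.3, and KO-PBS and WT-LPS libraries have nearby marker sums and separate H2-Aa levels.

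Open chromatin was already present at the chains in every group. An ATAC peak lay within 1000 bases of the gene start for all 7 members in PP, LP, PL, LL and KO-LPS, for 6 in KO-PBS and in WT-LPS, each without Ciita, and for 5 in WT-PBS, without Cd74 and Ciita, against 47% to 55.6% of protein-coding genes with such a peak. The WT-PBS list was the shortest, with 36412 peaks, and the LL list the longest, with 71667. Over the H2-Aa start the peak area, as the peak caller gave it, was 415, 446, 362 and 440 in PP, LP, PL and LL and 84.8 in WT-PBS, 205 in KO-PBS, 291 in WT-LPS and 266 in KO-LPS. Ranked within their own lists these were at percentiles 59.6 to 63.7 in the tolerance model and 39.7 to 58.8 in the priming model, lowest in WT-PBS. KO-PBS and WT-LPS thus had like peaks at H2-Aa, whereas its RNA was higher in KO-PBS. H2-DMa had peaks at percentiles of 93.6 to 100, shared with the neighbouring Brd2 start.

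**Figure D4:**
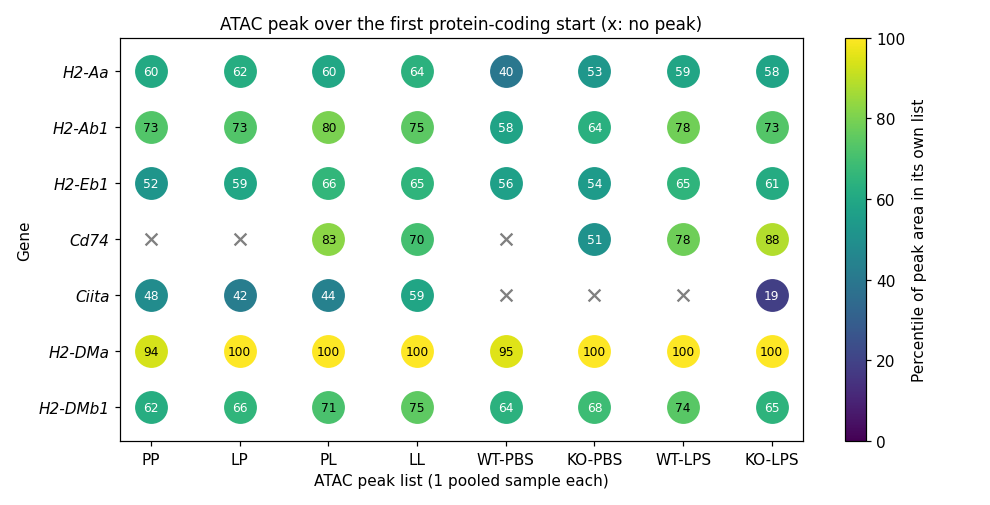
ATAC peak over the first protein-coding start of each class II gene (rows) in the 8 pooled samples (columns), coloured and numbered by the percentile of its area within its own list, with x for no peak. The Cd74 start is covered in PL, LL, KO-PBS, WT-LPS and KO-LPS and not in WT-PBS, nor in PP and LP, where a peak ends 16 and 12 bases before it, while the starts of H2-Aa, H2-Ab1 and H2-Eb1 are covered in all 8.

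Cd74 and Ciita were the members whose first protein-coding start was covered by an ATAC peak in some groups and not in others. No peak covered the Cd74 start in PP, LP or WT-PBS, but in PP and LP a peak ended 16 and 12 bases before it, with an area of 184.5 (percentile 43.3) and 398 (59.7), while the KO-PBS peak that covered it ended 15 bases after it. For PP and LP the call thus rested on a few bases, and WT-PBS alone had no peak within 1000 bases. Peaks covered it with an area of 185 in KO-PBS (percentile 50.7), 618 in LL (70.3), 839.5 in WT-LPS (77.8), 1225 in KO-LPS (88.3) and 1254 in PL (82.6). KO-PBS, with more Cd74 RNA than WT-LPS, had the smaller peak. At 384 to 4416 and 4558 to 5545 bases downstream of the start, merged open regions were in all 8 lists. The Ciita start was covered in PP, LP, PL and LL, at percentiles 42 to 58.7, and in KO-LPS, at percentile 18.6. H3K4me3, a mark of active starts, covered the Cd74 start in PL, LL and KO-PBS, from 47 bases before it to 5352 after it in PL and from 447 before to 3952 after in KO-PBS. It did not cover the start in PP, LP or WT-PBS. An H3K4me3 peak lay within 1000 bases of the start in PP (percentile 25.5) and WT-PBS (29.2), and none in LP. H3K27ac, a mark of active promoters and enhancers, covered the start in all 6 lists of that mark.

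At all 7 loci with 5000 bases on each side, PL had 47 ATAC peaks, of which 13 (27.7%) overlapped none in PP, against 20.7% of all PL peaks. In LL 5 of 39 (12.8%) had no counterpart in LP, against 22.1%. In WT-LPS 17 of 35 (48.6%) had none in WT-PBS, against 55.4%, in KO-LPS 14 of 44 (31.8%) had none in KO-PBS, against 25.8%, and in KO-PBS 15 of 34 (44.1%) had none in WT-PBS, against 44.2%. These shares lay on both sides of those of all peaks, and the lists differed in length. Merged over the 8 lists, 863 of 95070 regions (0.908%) were present in all 4 samples taken after LPS and in none of the others. At the members, 1 region was of this kind, 15 were in all 8 lists and 33 were in other combinations. Over all regions, 26% were in all 8 lists and 73.1% in other combinations. The 1 region is too few to set the members apart from all regions.

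The 1 member region seen only after LPS was in Ciita. It spanned chr16:10489122-10489397, 9063 to 9338 bases downstream of the gene start and just upstream of a cluster of protein-coding transcript starts 9687 to 9724 bases downstream. Its peaks were modest, with an area of 166 (percentile 42.9) in PL, 124 (37.2) in LL, 43.85 (17.8) in WT-LPS and 113 (39.2) in KO-LPS. The 132 bases shared by the peaks of all 4 LPS lists are printed because this was the only region at a member that was open in every list after LPS and in no other, with a match to GAAANNGAA in capitals.
Ciita, chr16:10489216-10489347, GRCm38, plus strand: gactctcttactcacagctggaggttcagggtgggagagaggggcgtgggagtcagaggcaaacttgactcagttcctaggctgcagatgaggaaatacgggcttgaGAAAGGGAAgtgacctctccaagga
This motif was found in 5.22% of windows of that length in all merged regions and in 37 of the 863 regions seen only after LPS (4.29%). H3K4me3 lay over the nearby starts in all 6 lists, from 9342 or less to at least 10141 bases downstream in 5 of them and from 9542 in PP. H3K27ac lay there in LP, PL and LL and in none of PP, WT-PBS and KO-PBS. H3K27me3, the mark of Polycomb silencing, covered the same starts in WT-PBS, from 2942 to 32741 bases downstream, and in KO-PBS, from 2742 to 29141, the genotypes in which it was mapped. Ciita RNA did not pass as higher after LPS in either genotype of the priming model.

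**Figure D5:**
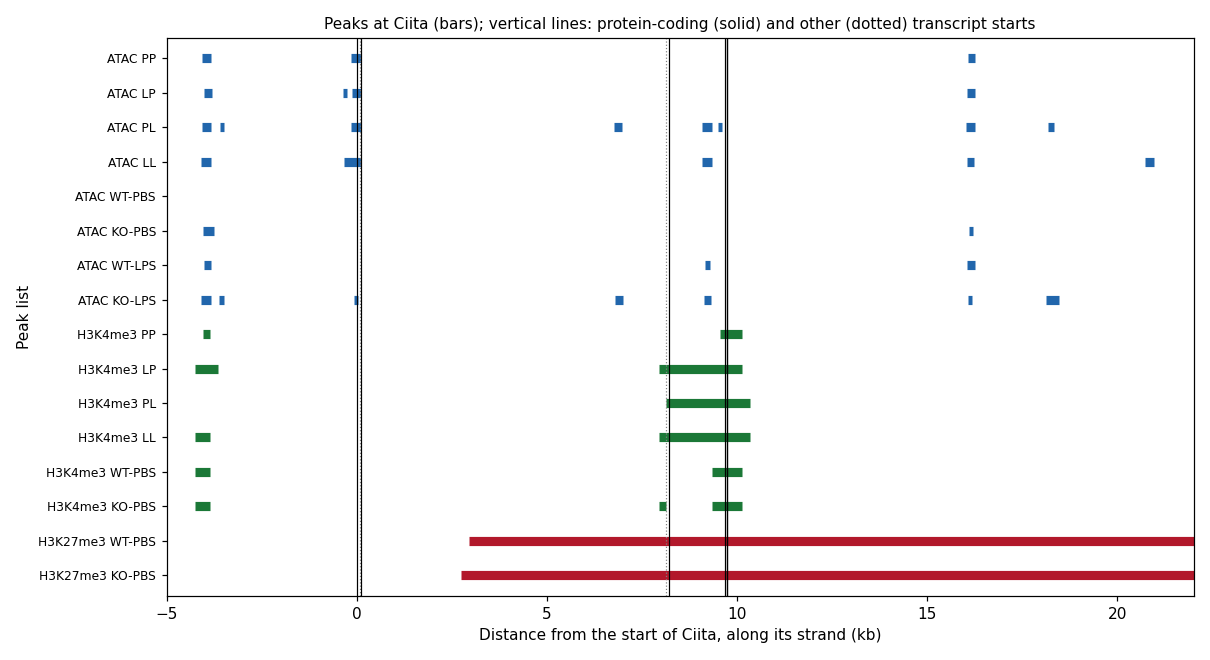
Peaks at Ciita (bars) by distance from its gene start in kb (horizontal axis) in the lists of ATAC (blue), H3K4me3 (green) and H3K27me3 (red), with transcript starts as vertical lines, solid where protein-coding. Among the ATAC lists, the bar 9063 to 9338 bases downstream appears in PL, LL, WT-LPS and KO-LPS alone, and H3K4me3 and H3K27me3 overlap at the starts beyond it in WT-PBS and KO-PBS.

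The peaks called at H2-Aa differed between the genotypes, each with 1 pooled sample per mark. In KO-PBS an H3K4me3 peak lay 23 to 1222 bases downstream of the H2-Aa start, at percentile 17 of its list. No other H3K4me3 list had one within 1000 bases. Of the 14 H3K4me3 peaks at the members in KO-PBS, 2 (14.3%) had no counterpart in WT-PBS, against 7.74% of all. H3K27ac was at H2-Aa in KO-PBS, 623 to 1022 bases downstream, in LP, 623 to 822, and in PL, 223 to 422, and was not called there in PP, LL or WT-PBS. These H3K27ac peaks ranked low in their lists, at percentiles 4.55 to 6.36. An H3K27me3 region of WT-PBS, chr17:34271201-34302000, covered the H2-Aa start, and no KO-PBS region overlapped it. It ranked at percentile 29.3 of its list, and 1 of the 2 H3K27me3 regions at the members in WT-PBS had no counterpart in KO-PBS, against 19.7% of all. H2-Ab1 had H3K4me3 and H3K27ac over its first protein-coding start, 5520 bases downstream of the gene start, in every list of either mark. H3K4me1, which marks enhancers and their surroundings, covered the first protein-coding start of all 7 members in both genotypes, but the names of these 2 deposited lists give the opposite genotype to their labels, so no difference was drawn from them.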

How the data were processed

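RNA was measured in 24 libraries and chromatin in 8 ATAC and 16 histone mark peak lists, grouped by the sample labels. The authors deposited expected counts of reads in genes, made with bbduk, STAR 2.7.3a (GRCm38) and featureCounts 2.0.0; how fractions arose is not given in the sources used here. The deposited peak lists hold a score, a signal (ATAC peak area) and a -log10 p or q, which the authors obtained with Bowtie2 2.3.5.1 and Genrich 0.5 (ATAC) or SPAN against input (marks). These values were not scaled between lists.

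Counts were rounded (at least 99.99% of each total kept), filtered with filterByExpr and tested in R 4.3.3 with the edgeR 4.0.16 quasi-likelihood test, each model apart, with group means and Benjamini-Hochberg adjustment over all genes; the standard error is the log2 fold change over the square root of F. The method was tested on simulated data. Ercc1 model columns carry no replicate number. The labels do not say whether replicates shared a litter or day, so p-values measure the spread between these mice.

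Alternatives were DESeq2 1.42.0, RLE scaling, other filters, limma 3.58.1 voomWithQualityWeights with or without sva 3.50.0 (2 and 3 surrogate variables, the latter of 4 estimated, since more could not be fitted), a replicate block, the compared groups alone and each library left out. For peaks they were a 2000 bp window, other starts, equal list lengths and an overlap of 50%. Peaks were shared at 1 base of overlap. Named genes were the members, up to 4 per related list and comparison past the test by size of change, and the 5 of most like pattern to H2-Aa. Members and lists were chosen with earlier results of these data known. The authors' own test was limma with sva, here an alternative. Input libraries were not used.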

Additional observations from a re-analysis of the deposited data

Results flagged for a closer look

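The response of Cd74 to LPS differed between mice with and without an earlier LPS injection, by the test of the interaction itself: LL versus LP minus PL versus PP was -2.83 on the log2 scale (SE 0.50, edgeR adjusted p = 0.00973). The first response was 2.60 and the second -0.23. With each library left out in turn the difference ranged from -3.13 to -2.19, with a highest adjusted p of 0.0407. No group had more than 3 libraries, so no library was tested for standing apart.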

How the results depend on the processing

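No called member turned direction. Several values below the threshold turned sign, among them these. Cd74 in LL versus LP went from -0.23 to 0.41 without LP library 3 and also turned in limma without sva, H2-Ab1 in PL versus PP from 0.60 to -0.08 without PL library 1, and H2-DMb1 in KO-LPS versus WT-LPS to -0.06 without KO-LPS library 1. Without PL library 1, LL versus PL went to 0.45 for H2-Aa, 0.23 for H2-Ab1 and 0.22 for H2-Eb1, and without WT-PBS library 3, WT-LPS versus WT-PBS went to -0.02 for H2-DMa and -0.17 for H2-DMb1. The number of members lower in LL versus LP, 1 as reported, was 0 with DESeq2, 3 with no filter, 4 with limma and sva and 2 with the compared groups alone. The number higher in LP versus PP, 0 as reported, was 4 with no filter and 4 with limma and sva, and the number lower in the tolerance interaction, 1 as reported, was 4 under both. For PL versus PP, limma with sva gave 4 higher (1 as reported) and 1 lower, and limma without sva 1 lower (0 as reported). For WT-LPS versus WT-PBS the 2 higher became 1 with limma without sva and 1 with the compared groups alone. For KO-LPS versus KO-PBS the 0 lower became 1 with limma with sva, without sva and with the compared groups alone. In KO-PBS versus WT-PBS, Ciita was added to the 5 members higher as reported in DESeq2 and limma without sva. It was also added with no filter and with the filter at 1 CPM. In limma with sva H2-DMb1 was added there, and H2-Eb1 to the 2 higher in KO-LPS versus KO-PBS. The cause was not tested. RLE scaling changed none of the 20 counts.

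With each library left out, counts ranged from 1 to 1 higher and 0 to 1 lower in PL versus PP, 0 to 0 in LP versus PP, 0 to 3 lower in LL versus LP, 0 to 1 lower in LL versus PL, 1 to 1 lower in the tolerance interaction, 4 to 6 higher in KO-PBS versus WT-PBS, 1 to 3 higher in WT-LPS versus WT-PBS, 1 to 2 higher in KO-LPS versus KO-PBS and 4 to 5 higher in KO-LPS versus WT-LPS, and the other counts stayed at 0. The replicate block in the tolerance model changed none of 10 counts and none of 30 fold change calls: it gave 1 member higher in PL versus PP. Same-numbered libraries there correlated at -0.409 to 0.414 in their deviations from group means, and differently numbered ones at -0.395 to 0.505. Deviations from a mean of 3 libraries are tied to each other, so these values cannot decide whether the numbers pair the mice. No paired analysis was possible because the columns carry no replicate numbers in the priming model.

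Over all genes, LP versus PP gave 0 higher and 0 lower with edgeR and 51 and 6 with no filter, and the tolerance interaction 54 and 235, which DESeq2 changed to 278 and 351, no filter to 264 and 372 and limma with sva to 724 and 744. KO-PBS versus WT-PBS gave 1430 and 588 as reported, 1670 and 1352 in DESeq2, 1679 and 942 in limma without sva and 938 and 199 with the compared groups alone. The priming interaction gave 270 and 538 as reported, 804 and 957 in DESeq2 and 596 and 1078 in limma with sva. Counting a peak at any transcript start, the members with H3K4me3 were 5 in LP, 6 in PL and 6 in LL (3 each at the gene start), those with H3K27ac in WT-PBS 5 (3), and those with H3K27me3 2 in WT-PBS (1) and 1 in KO-PBS (0), since more starts were searched. The first protein-coding start, an alternative chosen after seeing the data, the wider window and equal list lengths moved no count by over 1.5 times. Depth limits Ciita, at 0 to 13 expected counts per library in the tolerance model.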
